A study of Mus musculus with 6 samples.

Results

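The 9 genes described here encode enzymes that finish and cross-link collagen outside the cell, and enhancers of some of them. They were taken by symbol from a list of lysyl oxidases (Lox, Loxl1, Loxl2, Loxl3 and Loxl4), procollagen C-proteinases (Bmp1 and Tll1) and enhancers of those proteinases (Pcolce and Pcolce2). All 9 were among the 22032 genes of the table. RNA was sequenced from 6 libraries of the mouse line mDE6. Cells of the control group (shControl, 3 libraries) carried a control hairpin RNA, and cells of the other group (shArl4c, 3 libraries) carried a hairpin directed at Arl4c, which encodes an ARF-like GTPase. The libraries are called shControl 1, 2 and 3 and shArl4c 2, 3 and 4, after the numbers in the deposited table. The labels name no tissue of origin, hairpin sequence, clone or culture for the line.

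Fibrillar collagens leave the cell as procollagens with propeptides at both ends. Bmp1 and the related tolloid-like proteinase encoded by Tll1 remove the C-propeptide, which lets the molecules assemble into fibrils, and the Pcolce proteins bind the propeptide and speed the cut. Lysyl oxidases are copper enzymes that oxidise lysine side chains of collagen and elastin, after which the chains cross-link. Bmp1 also cleaves the propeptide of lysyl oxidase itself. Dentine and bone rest on cross-linked type I collagen.

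The libraries held 12316770 to 14976113 reads, and 1 read was worth 0.0672 to 0.0827 CPM, the unit of the table (reads divided by a scaled library size). Arl4c itself was lower in the shArl4c libraries (6.75, 7.42 and 6.89 CPM) than in the shControl libraries (20.7, 21.0 and 20.1 CPM). In a comparison of read counts between pairs of libraries, the chi-square divided by its degrees of freedom was 4.87 and 5.74 for shArl4c 3 against the other two of its group, and 1.54 to 2.30 for the other pairs within a group. Results that turn on that library are therefore given without it as well. Of 8 mesenchymal markers, 7 reached a mean of 1 CPM, and their summed level was 30488 to 31899 CPM in shControl and 18499 to 19338 CPM in shArl4c, mostly type I collagen. Of 10 epithelial markers only Trp63 reached a mean of 1 CPM, and Epcam and Cldn4 had no row. The summed epithelial level was 6.20 to 7.12 CPM in shControl and 8.26 to 9.73 CPM in shArl4c. Leukocyte markers summed to 6.87 to 8.05 and 9.29 to 10.6 CPM, and endothelial markers to 1.08 to 1.74 and 1.07 to 1.67 CPM. The part of these markers in the results below was not tested.

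With the Arl4c hairpin, the most abundant gene of each role moved by at most 11.5%, and the scarcest gene of each role fell. By limma on log2(CPM + 1), with p-values adjusted over all 14740 tested genes and a call at an adjusted p under 0.05, Lox and Loxl4 rose, Loxl2, Tll1 and Pcolce2 fell, and Loxl1, Loxl3, Bmp1 and Pcolce did not pass. That is 5 of 9 genes called, where 36.9% of all tested genes were called. The 2 that rose stand beside 18.9% of tested genes called higher, and the 3 that fell beside 18.0% called lower, so these counts alone say little about the 9 genes. Genes were tested if their mean over the 6 libraries reached 1 CPM. Tll1 and Pcolce2 did so only through shControl, with shArl4c means of 0.150 and 0.623 CPM, so they could be called only as lower. Without that filter limma also called Tll1 (adjusted p = 1.21e-07) and Pcolce2 (adjusted p = 4.39e-08) lower. The groups did not overlap in 6 of the 9 genes, against 46.8% of all tested genes. Since the labels give only 1 Arl4c hairpin group, loss of Arl4c and off-target action of the hairpin cannot be told apart. A smaller share of cells expressing a gene and less of its RNA per cell cannot be told apart either. Separate cultures are not stated for the 3 libraries of a group, and the spread that the p-values rest on may therefore be technical.

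**Figure D1:**
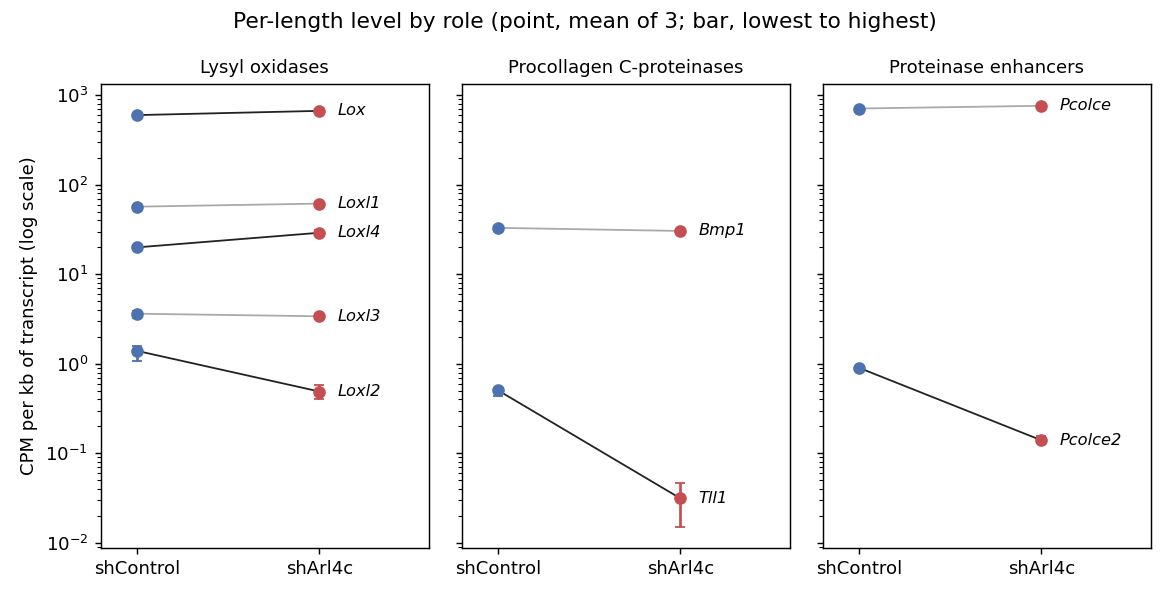
Mean level per kb of transcript (vertical axis, log scale) in shControl and shArl4c for the 5 lysyl oxidase genes, the 2 proteinase genes and the 2 enhancer genes, with bars from the lowest to the highest of 3 libraries. Black lines join genes that passed limma's test and grey lines those that did not. Lox, Bmp1 and Pcolce lie at the top of their panels with nearly level lines, and Loxl2, Tll1 and Pcolce2 at the bottom with falling ones.

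Levels of different genes were compared per kb of the longest protein-coding transcript. Among the lysyl oxidases the order in shControl was Lox (600.3 CPM per kb), Loxl1 (57.0), Loxl4 (20.01), Loxl3 (3.63) and Loxl2 (1.40). It was the same in shArl4c, with 669.5, 61.7, 29.1, 3.40 and 0.491 CPM per kb, and no neighbours in this order overlapped between libraries of a group. Lox alone made up 88.0% ± 0.517 (SD, n = 3) of the summed per-kb level of the 5 genes in shControl and 87.6% ± 0.325 in shArl4c. Bmp1 stood at 33.05 and 30.5 CPM per kb in shControl and shArl4c, and Tll1 at 0.506 and 0.0315. Pcolce stood at 711 and 763 CPM per kb, and Pcolce2 at 0.904 and 0.140.

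Lox, the founding member of the family and the main cross-linking enzyme of collagen, rose slightly. The shControl libraries 1, 2 and 3 gave 2817, 2783 and 2939 CPM, and the shArl4c libraries 2, 3 and 4 gave 3195, 3077 and 3252 CPM. All shArl4c libraries lay above all shControl libraries. The means were 2846 ± 82.2 and 3174 ± 89.1 CPM (SD, n = 3), 11.5% higher, which passed limma's test (adjusted p = 0.00399) with a log2 fold change of 0.16 and an SE of 0.04. Without shControl 2 the log2 fold change was 0.14 and no longer passed limma's test (adjusted p = 0.0540), and without shArl4c 4 it was 0.14 and passed (adjusted p = 0.0429). Without shArl4c 3 it was 0.18, with an adjusted p of 1.63e-08.

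Loxl4, which encodes a lysyl oxidase with scavenger receptor domains, rose the most of the 9 genes. Its level was 72.3, 74.8 and 77.3 CPM in the shControl libraries, against 116, 106 and 105 CPM in those of shArl4c, with a wide gap between the groups. The means were 74.8 ± 2.51 and 109 ± 5.98 CPM, a ratio of 1.46, with a limma adjusted p of 5.60e-08 and a log2 fold change of 0.53 (SE 0.05). Its share of the summed per-kb lysyl oxidase level went from 2.93% ± 0.0678 to 3.81% ± 0.2095 (SD, n = 3).

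Loxl2, a relative of Loxl4 that also has scavenger receptor domains and cross-links basement membrane collagen, fell. Its level was 8.12, 5.78 and 8.36 CPM in the shControl libraries, against 2.61, 3.07 and 2.14 CPM in those of shArl4c, so that every shArl4c library was below every shControl library. The log2 fold change of CPM + 1 was -1.22 (SE 0.15, limma adjusted p = 3.60e-06), a scale that understates changes at such low levels. In reads, 297 in the 3 shControl libraries stood against 105 in the 3 shArl4c libraries, 2.81-fold lower in CPM (95% interval 2.24 to 3.54, exact binomial, counting error only).

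Loxl1, which acts on elastic fibres, had levels of 191, 193 and 180.04 CPM in the shControl libraries, against 209.7, 191 and 209 CPM in those of shArl4c. The groups overlapped through shArl4c 3. Its log2 fold change was 0.11 (95% interval 0.02 to 0.21, limma adjusted p = 0.0648), and without shArl4c 3 it was 0.16 with an adjusted p of 0.000362. With any other library left out it did not pass (adjusted p 0.0924 to 0.267). Leaving out shArl4c 3 also raised the calls over all genes, to 3488 higher and 3137 lower from 2790 and 2655. Loxl3, needed for palate and cartilage development, had levels of 15.9, 15.5 and 13.3 CPM in the shControl libraries, against 14.4, 14.0 and 13.3 CPM in those of shArl4c. Its groups overlapped, with a log2 fold change of -0.09 (95% interval -0.28 to 0.10, limma adjusted p = 0.503). Of its exon bases, 11.6% overlap Htra2 on the opposite strand in the annotation used. The sources used here do not state strand-aware counting, so some of its reads may be shared. The same limit covers Loxl2, where 5.57% of exon bases overlap Gm27177 on the opposite strand. For Pcolce, 2.93% overlap Fbxo24 on the same strand and 2.93% Gm36266 on the opposite strand. Other overlaps were smaller.

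The lysyl oxidase genes did not move together. Tested within each library against Lox, Loxl4 rose by a further 0.38 on the log2 scale (95% interval 0.27 to 0.48, limma adjusted p = 9.28e-06) and Loxl2 had a log2 fold change of -1.37 (-1.71 to -1.03, adjusted p = 2.21e-06). For Loxl1 the difference from Lox was -0.04 (-0.14 to 0.06, adjusted p = 0.470), and for Loxl3 the difference was -0.24 (-0.45 to -0.04, adjusted p = 0.0528). In this comparison of changes, not of levels, 8.08% of all tested genes were called higher relative to Lox and 36.3% lower. Lox was chosen as the reference after the data were seen, so these values restate the changes above and are no separate support. The summed per-kb level of the 5 genes was 682 ± 15.6 CPM per kb in shControl and 764 ± 22.1 in shArl4c (SD, n = 3).

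**Figure D2:**
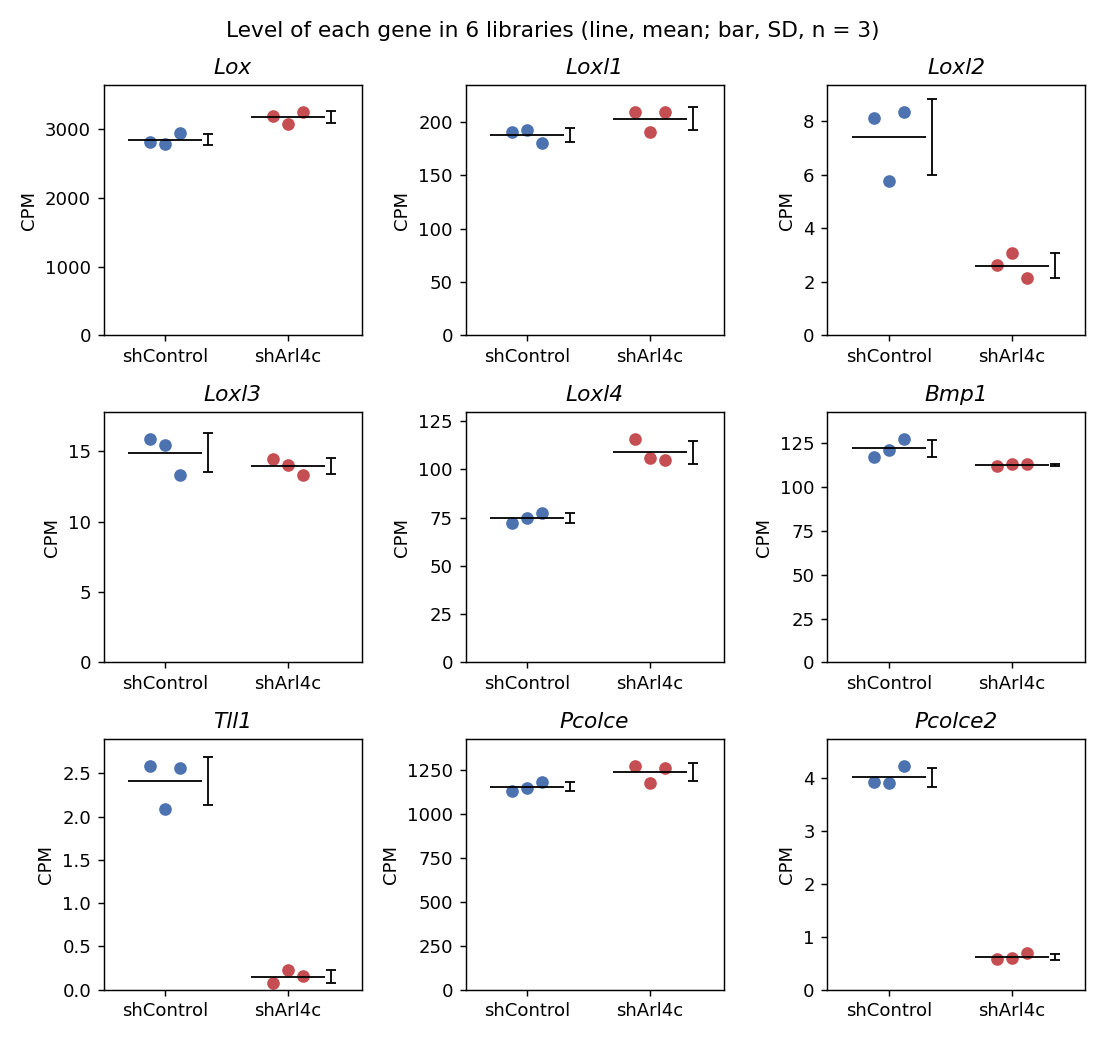
Level in CPM (vertical axes, from 0, a separate scale per gene) of the 9 genes in each of 6 libraries, with the group mean as a line and the SD as a bar (n = 3). Tll1, Pcolce2 and Loxl2 show the widest gaps between groups, Loxl4 a gap in the other direction, and Loxl1, Loxl3 and Pcolce overlap.

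Bmp1, the main procollagen C-proteinase gene, stayed close to its control level. Its level was 117, 121 and 127 CPM in the shControl libraries, against 112, 113 and 113 CPM in those of shArl4c. The groups did not overlap, but the log2 fold change of -0.11 (95% interval -0.21 to -0.02) did not pass limma's test (adjusted p = 0.0522). It passed without shArl4c 3 (adjusted p = 0.0181) and without shControl 1 (adjusted p = 0.0482). With any other library left out it did not (adjusted p 0.115 to 0.227). Tll1, which encodes tolloid-like 1, the other proteinase measured, fell to a few reads. It had 35, 31 and 31 reads in shControl (2.58, 2.08 and 2.56 CPM) and 1, 3 and 2 reads in shArl4c (0.0726, 0.225 and 0.153 CPM). All 3 shArl4c values lay at or under 3 reads, the level that a count of 0 still allows. With 97 reads against 6, the CPM level was 16.04-fold lower (95% interval 7.11 to 44.8, exact binomial, counting error only). Limma gave a log2 fold change of -1.57 (SE 0.17, adjusted p = 6.46e-07). Relative to Bmp1 in the same libraries Tll1 had a log2 fold change of -1.45 (95% interval -1.83 to -1.08, limma adjusted p = 8.84e-07). In that comparison of changes 10.6% of all tested genes were called lower. Bmp1 was chosen as the reference after the data were seen, so the relative value restates the fall of Tll1 and is no separate support. The pseudocount of 1 CPM shrinks these limma values at such low levels. For the value relative to Bmp1, edgeR's quasi-likelihood test on the reads gave -3.82 (adjusted p = 1.25e-07). Tll1 made up 1.51% ± 0.183 of the summed per-kb level of the pair in shControl and 0.103% ± 0.0517 in shArl4c.

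Of the 2 enhancer genes, 1 fell and 1 did not pass. Pcolce, encoding the abundant procollagen C-proteinase enhancer, had levels of 1135, 1149.5 and 1185 CPM in the shControl libraries, against 1275, 1179.7 and 1266 CPM in those of shArl4c. The groups overlapped through shArl4c 3, and the log2 fold change of 0.10 (95% interval 0.01 to 0.19) did not pass limma's test (adjusted p = 0.0660). Without shArl4c 3 it was 0.14 with an adjusted p of 2.33e-05. With any other library left out it did not pass (adjusted p 0.0858 to 0.249). Pcolce2, encoding the other enhancer, was the one that fell. Its level was 3.91, 3.90 and 4.22 CPM in the shControl libraries, against 0.581, 0.600 and 0.689 CPM in those of shArl4c, with tight groups far apart. With 162 reads against 25, it was 6.43-fold lower in CPM (95% interval 4.20 to 10.2, exact binomial, counting error only). Limma gave a log2 fold change of -1.63 (SE 0.16, adjusted p = 8.22e-08). Relative to Pcolce in the same libraries the log2 fold change of Pcolce2 was -1.73 (95% interval -2.06 to -1.39, limma adjusted p = 1.31e-06). In that comparison of changes 26.8% of all tested genes were called lower. Pcolce was likewise chosen as the reference after the data were seen, so the relative value restates the fall of Pcolce2. The pseudocount shrinks these limma values too. For the value relative to Pcolce, edgeR's quasi-likelihood test on the reads gave -2.77 (adjusted p = 1.09e-06). Of tested genes with a mean of 1 to 10 CPM, the range that holds Loxl2, Tll1 and Pcolce2, 13.2% were called lower and 4.12% were called lower with a log2 fold change of -1 or below.

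Promoters of 4 of the 9 genes (Loxl4, Tll1, Pcolce and Pcolce2) were matched by symbol in a RefSeq table of build GRCm38.p6, an older build than the one behind the values. The 250 bases before the start of the 2 genes that fell the most and of the gene that rose the most are shown, 5′ to 3′ on the gene's strand, with motif matches in capitals. They are Tll1 at chr8:64206009-64206258 on the minus strand, Pcolce2 at chr9:95637378-95637627 on the plus strand and Loxl4 at chr19:42612807-42613056 on the minus strand.
Tll1: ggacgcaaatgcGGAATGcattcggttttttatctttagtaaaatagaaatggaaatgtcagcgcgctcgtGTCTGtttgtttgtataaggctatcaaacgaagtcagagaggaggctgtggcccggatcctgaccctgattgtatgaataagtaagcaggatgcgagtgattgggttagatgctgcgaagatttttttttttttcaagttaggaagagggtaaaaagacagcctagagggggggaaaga
Pcolce2: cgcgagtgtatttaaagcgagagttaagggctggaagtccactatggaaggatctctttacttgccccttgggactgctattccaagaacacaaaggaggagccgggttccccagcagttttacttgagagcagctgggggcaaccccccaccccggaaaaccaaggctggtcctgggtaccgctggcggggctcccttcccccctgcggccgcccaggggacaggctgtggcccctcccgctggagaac
Loxl4: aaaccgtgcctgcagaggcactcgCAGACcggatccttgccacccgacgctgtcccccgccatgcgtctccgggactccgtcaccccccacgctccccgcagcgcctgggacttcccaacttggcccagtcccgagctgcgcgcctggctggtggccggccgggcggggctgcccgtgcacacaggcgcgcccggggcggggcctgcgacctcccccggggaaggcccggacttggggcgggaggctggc
The motifs searched on both strands were those of factors known to act on matrix genes: GGAATG (TEAD), TGANTCA (AP-1), CAGAC (SMAD), ACGTG (the core of the hypoxia response element) and, by name, the CArG box bound by SRF. Tll1 held GGAATG at bases -238 to -233 and GTCTG, the reverse complement of CAGAC, at -179 to -175, counted back from the start. Loxl4 held CAGAC at -226 to -222. Pcolce2 held none of the 5 motifs in this window. Of 27025 promoters of the same length, 12.6% held GGAATG, 6.87% TGANTCA, 42.1% CAGAC, 16.6% ACGTG and 1.40% a CArG box. The promoters differed in composition: the GC content was 43.2% for Tll1, 61.2% for Pcolce2 and 76.0% for Loxl4, against a median of 52.0% over all promoters. The Pcolce promoter had a GC content of 58.8%. A match describes the letters and shows no bound factor.

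The fibrillar collagen genes, whose products these enzymes act on, mostly fell. The 11 fibrillar procollagen chain genes summed to 30074, 31545 and 31183 CPM in shControl and to 17199, 16855 and 17505 CPM in shArl4c, 1.80-fold lower on the means. Of the 10 tested, 8 fell, 1 rose and 1 did not pass, where 18.0% of all tested genes were called lower and 18.9% higher. This list, too, was chosen with earlier results of these data known. Col5a1 fell 2.57-fold, Col3a1 2.40-fold and Col2a1 13.7-fold, and Col1a1, the most abundant of them, went from 17787 ± 480.4 to 10139 ± 207 CPM. The ratio of Lox to the summed chains was therefore higher: Lox had 93.7, 88.2 and 94.2 reads per 1000 fibrillar procollagen reads in shControl and 186, 183 and 186 in shArl4c. The means were 92.0 ± 3.33 and 185 ± 1.85 (SD, n = 3). For Pcolce the same ratio went from 37.4 ± 0.836 to 72.1 ± 2.07, and for Bmp1 from 3.94 ± 0.127 to 6.54 ± 0.144.

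Each gene was then tested against the summed chains in the same library. Lox had a log2 fold change of 1.01 (95% interval 0.92 to 1.09, limma adjusted p = 5.34e-16), Loxl4 of 1.38, Loxl1 of 0.96, Pcolce of 0.95, Loxl3 of 0.76 and Bmp1 of 0.73, and all 6 were called higher. This is what most genes did, since 93.9% of all tested genes were called higher against the falling collagens. Tll1 (-0.72, adjusted p = 0.000974), Pcolce2 (-0.78, adjusted p = 0.000129) and Loxl2 (-0.37, adjusted p = 0.0349) were called lower by limma, as were 2.16% of all tested genes. These 3 values depend on the pseudocount: with 5 CPM in place of 1 they changed sign. Limma then called Tll1 (0.32, adjusted p = 0.000300) and Pcolce2 (0.17, adjusted p = 0.0372) higher relative to the summed chains, while Loxl2 (0.15, adjusted p = 0.148) did not pass. With edgeR's quasi-likelihood test on the reads, which needs no pseudocount of that size, they were -3.10 (adjusted p = 1.11e-06), -1.83 (adjusted p = 2.37e-06) and -0.65 (adjusted p = 0.00489). For Loxl2 limma's call was lost without shControl 1, without shControl 3, without shArl4c 2 or without shArl4c 4 (adjusted p 0.0517 to 0.160).

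**Figure D3:**
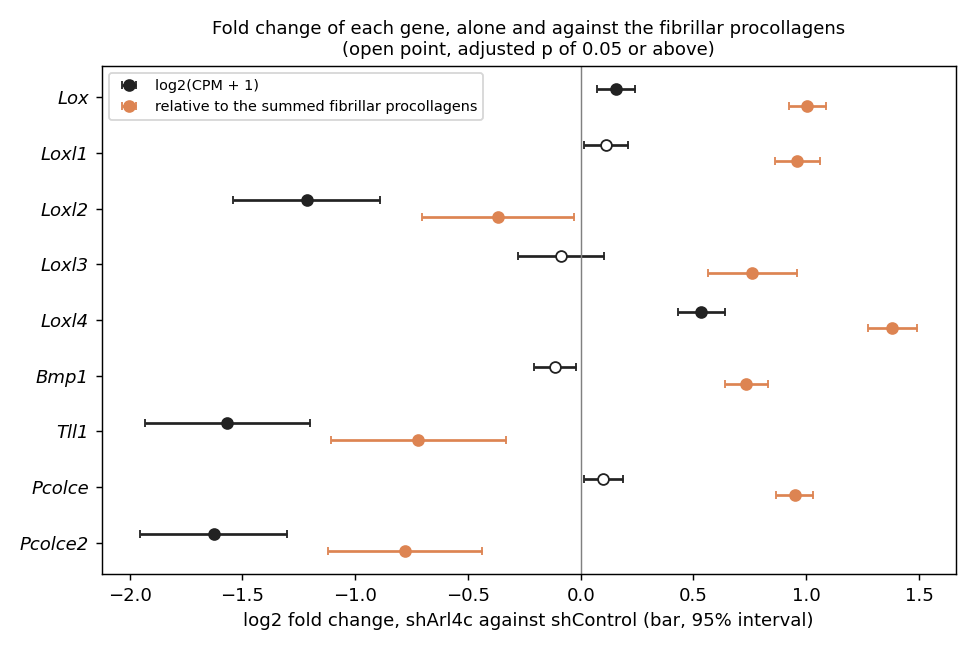
Log2 fold change of each gene (horizontal axis, with 95% intervals) in shArl4c against shControl, on log2(CPM + 1) in black and relative to the summed fibrillar procollagens of the same library in orange. Open points did not pass limma's test. The same falling sum is subtracted from every gene, so all orange points lie equally far to the right of the black ones. The orange points stay below 0 for Loxl2, Tll1 and Pcolce2 with this pseudocount but not with one of 5 CPM.

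Other genes of procollagen processing and cross-linking were counted by list, beside a median log2 fold change of 0.01 over all tested genes and the same 36.9% called. Of 5 tested procollagen N-proteinases and activating convertases, 2 fell, 1 rose and 2 did not pass (median -0.05). Adamts14, an N-proteinase gene, rose from 20.8 ± 1.57 to 36.3 ± 0.543 CPM, and Adamts2, the main N-proteinase gene, fell from 176 ± 7.21 to 159 ± 5.09 CPM (limma adjusted p = 0.0135). Pcsk6, a proprotein convertase gene, fell from 61.2 ± 4.61 to 26.3 ± 1.83 CPM. The proteases thus also moved in both directions.

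All 5 listed matrix partners of Bmp1 or lysyl oxidase fell (median -1.47), where 18.0% of all tested genes were called lower. The list was chosen with earlier results of these data known, so this count cannot serve as a test. Postn, encoding periostin, which binds Bmp1 and aids the activation of lysyl oxidase, had a log2 fold change of -3.98. Fn1, encoding fibronectin, which also binds Bmp1 and lysyl oxidase, had one of -0.67, and Thbs1, encoding thrombospondin 1, one of -0.98. Of 8 genes of lysyl hydroxylation and collagen folding, 5 fell and 3 did not pass (median -0.31). Fkbp10, a prolyl isomerase gene that supports hydroxylation of the collagen telopeptides, fell from 366 ± 6.37 to 253 ± 11.0 CPM. Serpinh1, encoding the collagen chaperone HSP47, fell from 1487 ± 39.03 to 1048 ± 78.9 CPM, and P3h3 from 51.995 ± 3.42 to 37.9 ± 2.08 CPM.

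Lysyl oxidases receive copper in the secretory pathway. Of 5 tested copper-handling genes, 2 fell, 1 rose and 2 did not pass (median -0.13). Atp7a, the pump that loads copper into that pathway, rose from 34.1 ± 2.40 to 41.6 ± 2.59 CPM (limma adjusted p = 0.00239). The importer gene Slc31a1 fell from 65.0 ± 0.675 to 56.9 ± 2.60 CPM, and Slc31a2 from 6.01 ± 0.542 to 4.34 ± 0.615 CPM.

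Of 5 tested genes of elastic fibre assembly, 2 fell, 1 rose and 2 did not pass (median -0.07). Fbln5, encoding fibulin 5, which guides Loxl1 to elastin, fell from 204 ± 7.79 to 110 ± 5.09 CPM, Emilin1 fell from 324 ± 12.2 to 284 ± 10.5 CPM, and Fbn1, encoding fibrillin 1, rose from 374 ± 9.05 to 479 ± 21.2 CPM. Eln, the elastin gene and the other classic substrate of lysyl oxidases, was near the limit of detection, with 0.221, 0.134 and 0.579 CPM in shControl and 0.0726, 0.0750 and 0.153 CPM in shArl4c, and was not tested. Of 11 tested non-fibrillar substrates of the tolloid proteinases, 4 rose, 2 fell and 5 did not pass (median 0.01). Igfbp3 rose from 8.17 ± 0.417 to 29.7 ± 2.74 CPM and Bgn, encoding the proteoglycan biglycan, from 224 ± 2.19 to 291 ± 4.97 CPM, while Hspg2, encoding perlecan, fell from 1826 ± 47.9 to 1246 ± 104 CPM.

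**Figure D4:**
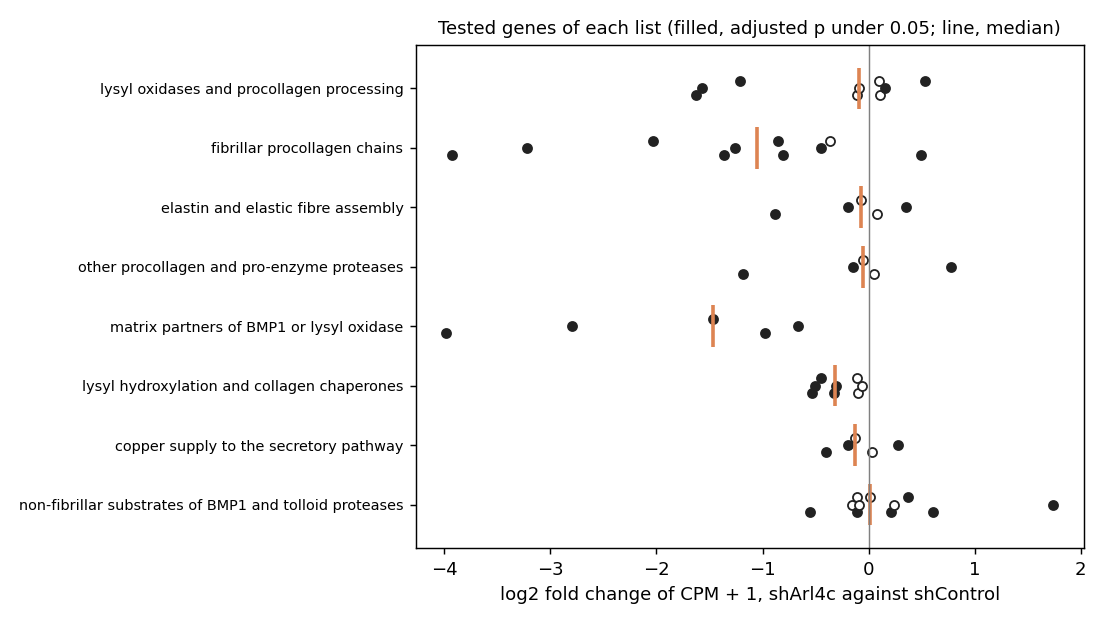
Log2 fold change of CPM + 1 (horizontal axis) for each tested gene of the 9 described genes and of 7 related lists, with the list median as an orange line. Filled points passed limma's test. The fibrillar procollagens (median -1.06) and the matrix partners (median -1.47) lie furthest to the left, and the 9 genes spread from -1.63 to 0.53 around a median of -0.09. The lists were chosen with earlier results of these data known.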

How the data were processed

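Gene expression was measured in 6 libraries, 3 per group. The deposited table holds CPM values per gene and library, scaled by the authors. Trimmomatic 0.38, RSEM 1.3.0, Bowtie2, edgeR and the build GRCm39 are named, per the submitters' processing notes, without order or settings. Columns named shluc were taken as shControl and columns naming a misspelt Arl4c hairpin as shArl4c, so that a column has a group but no sample number. Of the values, 100% were whole multiples of the smallest value of their column (tolerance 0.001 of a read), so reads were recovered. The limit that a count of 0 allows, 3 reads, was 0.202 to 0.248 CPM, for counting error only.

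Symbols came from a name table (21880 of 22032 identifiers matched) and transcript lengths from GENCODE vM21, of build GRCm38. Genes whose mean reached 1 CPM (14740) were fitted as log2(CPM + 1) with limma 3.58.1 in R 4.3.3, with trend and robust moderation and Benjamini-Hochberg adjustment over all tested genes. For relative tests the log2 level of the reference (the fibrillar sum, or Lox, Bmp1 or Pcolce plus 1 CPM) was subtracted in each library. The 3 references that are single genes were chosen after seeing the data, as was edgeR with the reference reads as library size. Alternatives were pseudocounts of 0.5 and 5 CPM, no filter or 5 CPM, median-of-ratios and quantile scaling, each library left out, Col1a1 as the reference, and edgeR 4.0.16 and DESeq2 1.42.0 on recovered reads. The genes named were the 9 members, Arl4c, Col1a1, Eln and the 3 called genes of each list with the smallest p. Trp63, Epcam, Cldn4, Htra2, Gm27177, Fbxo24 and Gm36266 were named after their values or positions were seen. The members and lists were chosen with earlier results of these data known.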

Additional observations from a re-analysis of the deposited data

How the results depend on the processing

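Over 323 single-gene values under alternative settings, 301 kept their direction and their side of the threshold, 14 newly passed it, 5 no longer passed and 3 reversed. The 3 reversals were of the values relative to the fibrillar procollagen sum with a pseudocount of 5 CPM: Tll1 at 0.32, Pcolce2 at 0.17 and Loxl2 at 0.15 on the log2 scale. A pseudocount of that size shrinks genes of a few CPM. With it limma called Tll1 (adjusted p = 0.000300) and Pcolce2 (adjusted p = 0.0372) higher relative to that sum, and 8 of the 9 genes in all, against 6 in the reported fit. It called 0 of the 9 lower, and 0 at an unadjusted p under 0.05, since all 9 values were above 0, against 3 in the reported fit and 3 by edgeR. With a filter at a mean of 5 CPM the count was 1, since Tll1 and Pcolce2 were not tested. Leaving out 1 library, the number of the 9 genes called higher ran from 1 (without shControl 2, where Lox did not pass) to 4 (without shArl4c 3, where Loxl1 and Pcolce passed too), and the number called lower from 3 to 4. Over all genes, 2177 to 3488 were higher and 2131 to 3137 lower when 1 library was left out. The calls of Loxl2, Loxl4, Tll1 and Pcolce2 against shControl held in every setting in which they were tested. Bmp1 passed in 5 of 14 settings, with an adjusted p of 0.0181 to 0.227. Quantile scaling moved the median of all genes relative to the fibrillar sum from 0.86 to 0.46. No paired analysis was possible because the columns could be mapped to a group and to no numbered sample. Depth limits Tll1, with 6 reads in shArl4c.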
